A study of Mus musculus with 2 samples.

Results

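The respiratory chain and ATP synthase of the inner mitochondrial membrane are described here through the 94 genes that encode their subunits, as measured by 10x Genomics single-cell RNA sequencing of mouse mammary tumours. The genes were taken from the 55357 gene rows of the deposited matrices by symbol. Symbols starting with Ndufa, Ndufb, Ndufc, Ndufs, Ndufv, Uqcr, Cox4 to Cox8 or Atp5 gave the nuclear genes, without assembly factors (Ndufaf) and rows named as pseudogenes (-ps). Symbols starting with mt-Nd, mt-Co, mt-Atp or mt-Cytb gave the mitochondrial genes. Of 101 matching rows, 7 had under 100 UMIs (unique molecular identifiers, each standing for 1 captured transcript) over both libraries and were left out: Ndufa11b, Ndufb11b, Ndufs6b, Cox7b2, Cox8b, Cox8c and a duplicate row of Atp5o. The nuclear genome holds 81 of the 94, with 38 in complex I, 8 in complex III, 18 in complex IV and 17 in complex V. The mitochondrial genome holds the other 13, with 7, 1, 3 and 2 in the same order.

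The tumours came from BALB/c mice bearing 4T1, a mouse line that models triple-negative breast cancer. Mice of the AptCD4-LNT group were given 3 doses, in order 5000000, 4000000 and 3000000 cells, at intervals of 3 days, and were killed on day 9. The labels give no further description of AptCD4-LNT, and no age or sex. Mice of the Untreated group received PBS, and in each group 3 tumours were mixed into 1 library, so there are no replicates and no difference was tested.

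Oxidative phosphorylation passes electrons from NADH through complex I, ubiquinone, complex III, cytochrome c and complex IV to oxygen, and the proton gradient that results drives complex V to make ATP. Subunits of these complexes come from both genomes, with the mitochondrial genes transcribed as long precursors inside the organelle and the nuclear genes each from its own promoter. Several subunits of complex IV exist as alternative isoforms that differ between tissues or with oxygen supply.

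The AptCD4-LNT library held 8931 barcodes with a median of 8612 UMIs, and the Untreated library 20040 barcodes with a median of 4640.5. The libraries shared 42 barcodes. After filtering, 8653 and 18510 cells were kept in 24 clusters, which were grouped into 10 classes by their marker genes. Although the labels give the cell type as tumor cell, only 44.7% and 53.8% of the cells fell in epithelial-like clusters, the class to which 4T1 cells belong. Comparisons between libraries used the 8 classes that reached 50 cells in both, and the class names below mean clusters that look like these cell types. Keratin RNA of the epithelial-like cells (Krt8 and Krt18) was found in the other 7 compared classes as well, from 2.31% of the epithelial level in AptCD4-LNT macrophages to 31.4% in Untreated pericytes. In T and NK cells it stood at 17.2% and 23.3%, and the part of such foreign RNA in the values below was not tested. Summed counts cannot tell fewer cells of a kind within a class from less RNA per cell. Levels are given as CPM, UMIs per 1000000 UMIs of all cells of a class, always with AptCD4-LNT before Untreated. Intervals are exact 95% intervals that cover counting error only.

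Nuclear subunit RNA took up 1.74% of all UMIs in the AptCD4-LNT library and 1.80% in the Untreated library, and mitochondrially encoded subunit RNA 1.56% and 1.58%. The spread between cell classes was far wider than that between libraries. Among the 8 compared classes, T and NK cells (1.72% and 1.96%), epithelial cells (1.87% and 1.89%) and pericytes (1.85% and 1.76%) had the highest nuclear shares. Neutrophils had the lowest, at 0.630% and 0.627%. Their share was 0.961% and 1.37% with doublet calls kept in and 0.751% and 0.964% without the mitochondrial filter, still the lowest of the 8 in both. Endothelial cells had 1.51% and 1.59%, macrophages 1.67% and 1.63%, monocytes 1.46% and 1.68%, and fibroblasts 1.21% and 1.40%. A small cluster with osteoclast markers, of 26 and 29 cells, stood above all of these at 3.77% (3.71 to 3.83%) and 3.50% (3.42 to 3.58%). Osteoclasts are known for many mitochondria, which power acid secretion onto bone. The 16 cells with skeletal muscle markers, all from the Untreated library, had 2.77% (2.63 to 2.93%), with keratin RNA at 49.9% of the epithelial level.

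**Figure D1:**
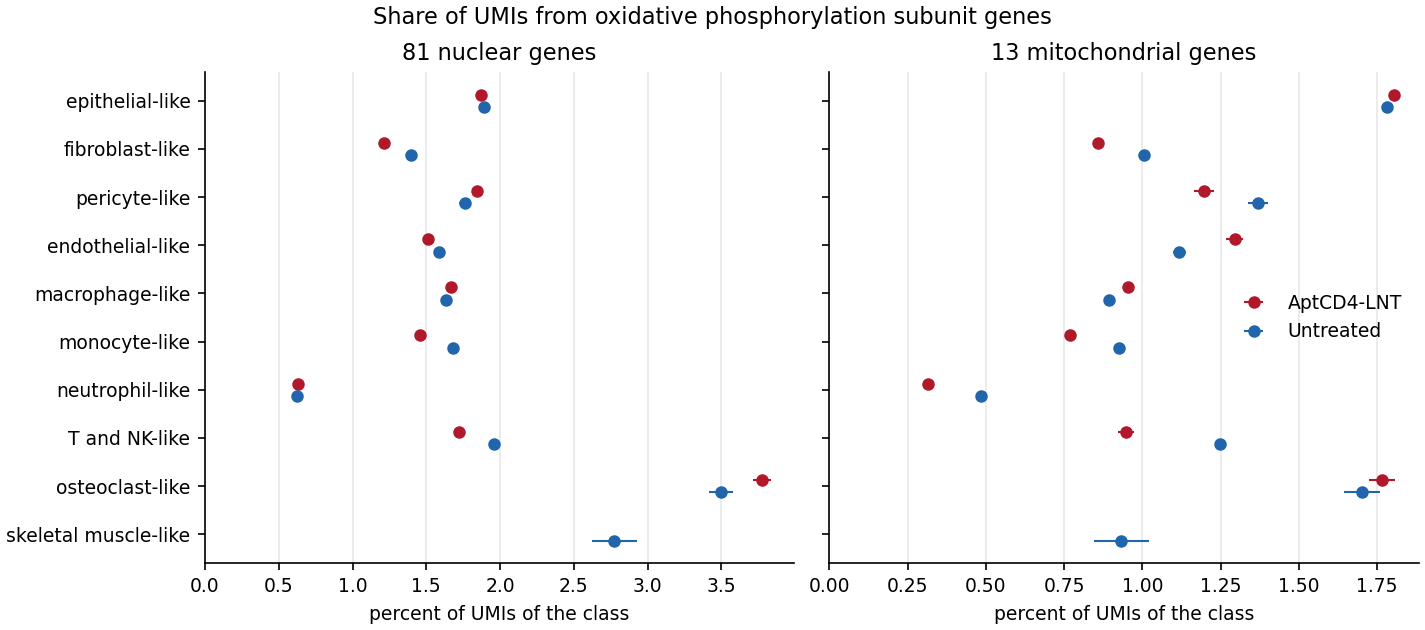
Share of UMIs (percent) that came from the nuclear and from the mitochondrially encoded subunit genes, by cell class and library, with exact 95% counting intervals. Neutrophils lie lowest for both genomes (0.630% and 0.627% nuclear) and osteoclast-like cells highest for the nuclear genes (3.77% and 3.50%).

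The balance of the genomes also differed by class. Epithelial cells had 0.962 and 0.942 mitochondrial UMIs per nuclear UMI, the highest ratio in both libraries. In macrophages it was 0.571 and 0.548, and in the osteoclast-like cells 0.468 and 0.486, so their high nuclear share went with a mitochondrial share (1.77% and 1.70%) close to that of epithelial cells (1.80% and 1.78%). Neutrophils were the class in which the ratio differed most between libraries, with 0.501 in AptCD4-LNT and 0.773 in Untreated. Endothelial cells differed the other way, with 0.855 and 0.703.

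Gene by gene, neutrophils had the lowest level of the 8 classes for 79 of the 94 genes in the AptCD4-LNT library and for 81 in the Untreated library. The share of all genes lowest in neutrophils was not counted. Cytosolic ribosomal protein genes were low there too, with 2.515% and 2.653% of UMIs against 14.58% and 14.36% in epithelial cells. Mitochondrial ribosomal protein genes had 0.188% and 0.163% against 0.570% and 0.598%. Glycolysis and hypoxia genes went the other way, with 1.28% and 1.51% against 0.847% and 1.05%. The class with the highest level was less fixed. In the AptCD4-LNT library it was epithelial for 31 genes, pericyte for 24 and T and NK for 17. In the Untreated library it was T and NK for 32, epithelial for 28 and pericyte for 15. Among the 10 genes with the widest range over classes, the 6 that belong to complexes I and V were all lowest in neutrophils. Ndufc2, an accessory subunit of complex I, had 16.3 and 22.9 CPM in neutrophils against 210 and 226 in epithelial cells. Atp5g1, which encodes the c subunit of the complex V rotor together with the paralogues Atp5g2 and Atp5g3, had 16.6 and 15.7 against 199 and 210. Ndufa9, a complex I subunit next to the quinone channel, had 5.24 and 6.50 against 49.3 and 46.1. Ndufa11, Ndufa5 and Ndufb5, further complex I subunits, had 18.5 and 16.4, 11.1 and 9.58, and 36.0 and 36.9 CPM in neutrophils. Their epithelial levels were 130 and 136, 89.7 and 95.8, and 293 and 303.

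The other 4 genes with a wide range, Ndufa4l2, Cox4i2, Cox6b2 and Cox6a2, were isoform genes of complex IV that were nearly silent outside a few classes. Ndufa4l2, the hypoxia-inducible paralogue of the complex IV subunit gene Ndufa4, was highest in pericytes, with 656 CPM in AptCD4-LNT and 411 in Untreated. Fibroblasts followed with 171 and 149. Their clusters differed: cluster 3 had 166 and 15.3 CPM, and cluster 4, led by Crabp1, Grem1 and Thbs2, had 184 and 254. Cox4i2, the isoform of the complex IV subunit Cox4i1 that is known from lung, oxygen-sensing cells and mural cells, was also highest in pericytes, at 312 and 138 CPM. No UMI of it was seen in T and NK cells of either library, and endothelial cells had 0 and 7 UMIs. The ubiquitous Cox4i1 had 891 and 884 CPM in epithelial cells, 334 and 318 in neutrophils, and 1693 and 1822 in osteoclast-like cells. Cox6b2, the testis isoform of Cox6b1, was found at 20.9 and 24.0 CPM in pericytes, from only 9 and 12 UMIs. Cox6a2, the heart and muscle isoform of Cox6a1, had 239 CPM in the muscle-like cells (11 UMIs) and 26.1 and 8.71 CPM in monocytes, from 55 and 21 UMIs. Siglech, a marker of plasmacytoid dendritic cells, moved with it in the monocyte class, with 81 and 21 UMIs, and its part in the Cox6a2 level was not tested. Cox7a1, the heart and muscle isoform of Cox7a2, had 38.2 and 49.1 CPM in osteoclast-like cells (15 and 10 UMIs). Cox8b, left out of the 94, had 20 UMIs, all in the Untreated library.

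**Figure D2:**
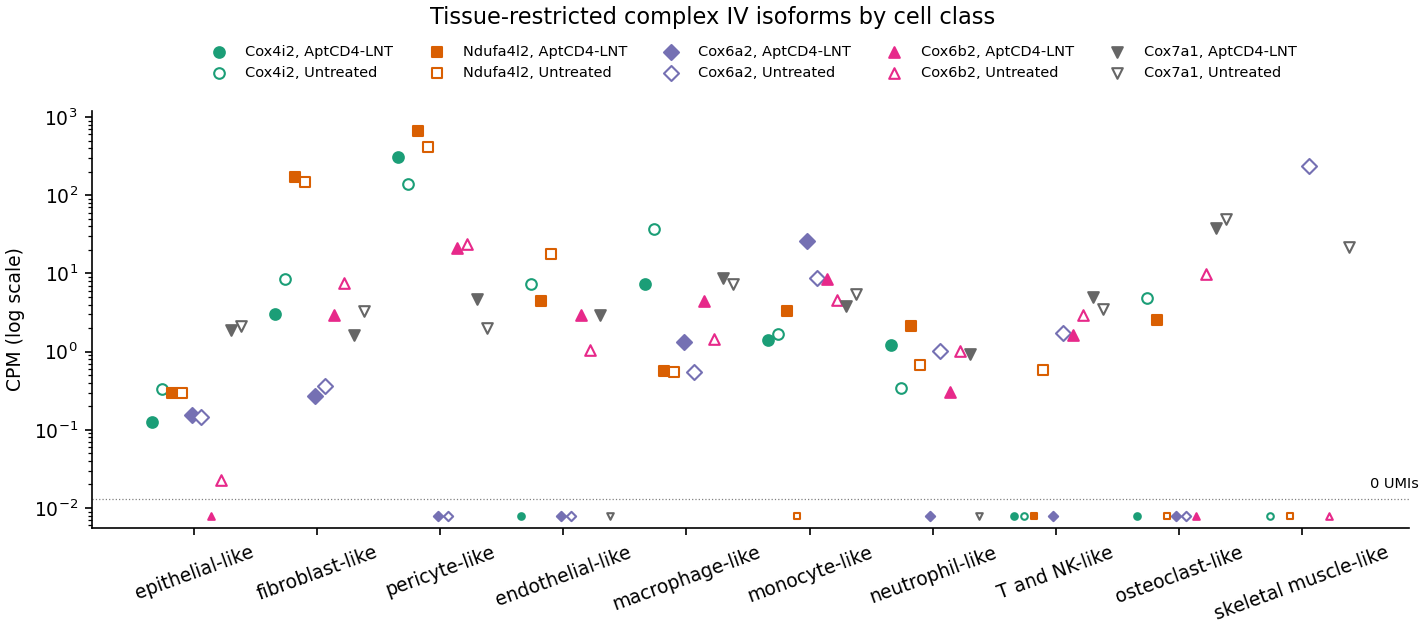
Level (CPM, log scale) of the isoform genes by cell class in the 2 libraries, with genes at 0 UMIs below the dotted line. Ndufa4l2 (656 and 411 CPM) and Cox4i2 (312 and 138 CPM) are highest in pericytes, and Cox6a2 stands out in muscle-like cells (239 CPM).

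The mitochondrial genes have copies in the nuclear genome, which the annotation lists as genes of their own. Over both libraries mt-Cytb, the single mitochondrial subunit of complex III, held 37.3% of the 3624818 mitochondrial subunit UMIs, mt-Nd1 24.0%, mt-Nd4 15.8%, mt-Nd2 11.2% and mt-Co1 6.83%. Together these 5 made 95.2%. Another 5 genes held only 1.18%: mt-Co3, mt-Co2, mt-Atp6, mt-Nd4l and mt-Nd3. For each gene, the share of its 90-base windows that also occur without a mismatch in the transcript of another gene was taken from GENCODE M21 (GRCm38). It was 99.9% for mt-Co3 (shared with Gm28437), 99.5% for mt-Co2 (Gm28661), 99.5% for mt-Atp6 (Gm10925), 98.6% for mt-Nd4l (Gm10222) and 97.7% for mt-Nd3 (Gm28438). It was 61.1% for mt-Nd4, 33.4% for mt-Co1, 4.21% for mt-Nd2, 0.346% for mt-Nd5 and 0 for mt-Nd1, mt-Nd6, mt-Cytb and mt-Atp8. Per kilobase of transcript, the 5 genes over 90% had 862 (mt-Nd3) to 39413 UMIs (mt-Atp6), while the 4 genes that share none ran from 32385 (mt-Nd6) to 1182300 (mt-Cytb). A read from a shared window cannot be given to 1 gene by its sequence, so the values of these 5 genes, and in part of mt-Nd4 and mt-Co1, are uncertain. The first 60 bases of mt-Nd3 and of Gm28438 show how close the copies are. They are printed from GENCODE M21 with the differing base in capitals, and this is the single difference in the 345 bases compared, of the 348 of mt-Nd3:
mt-Nd3: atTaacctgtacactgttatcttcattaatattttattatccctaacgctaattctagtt
Gm28438: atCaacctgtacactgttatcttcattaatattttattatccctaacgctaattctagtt
The row of Gm28438 itself held 59471 UMIs, against 300 for mt-Nd3. The other named copies held fewer UMIs than their mitochondrial gene. Gm28437 had 466 against 10520 for mt-Co3, and Gm28661 had 314 against 4350 for mt-Co2. Gm10925 had 401 against 26840 for mt-Atp6, and Gm10222 had 51 against 809 for mt-Nd4l. Of the 81 nuclear genes, 57 shared no such window with any other gene and 1 shared over 50%, Ndufb4c, whose windows all occur in Ndufb4.

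**Figure D3:**
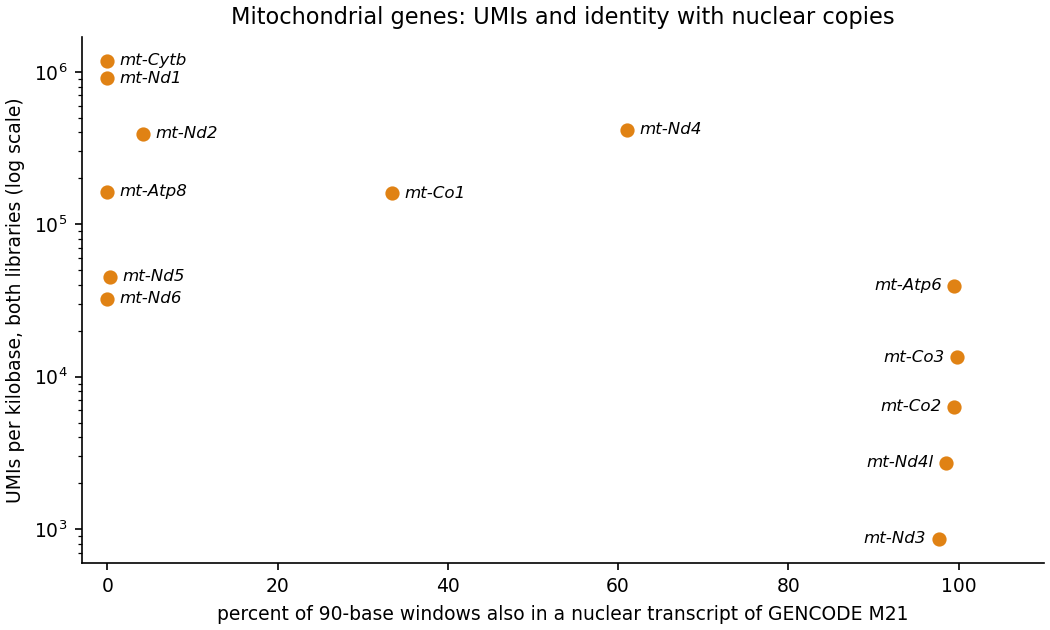
UMIs per kilobase of transcript (log scale, both libraries summed) of the 13 mitochondrial genes against the percent of 90-base windows found in another gene's transcript. The 5 genes above 90% lie between 862 and 39413 UMIs per kilobase, below mt-Nd1 (909240) and mt-Cytb (1182300), which share none.

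Between the libraries the nuclear subunit genes differed little in level within a class under the main settings. Their median log2 ratio (AptCD4-LNT over Untreated) lay between -0.23 in fibroblasts and 0.04 in pericytes, over 62 to 76 genes with enough UMIs. A 1.5-fold difference in either direction was passed by 5 higher and 5 lower gene values in all 8 classes together. Of all genes measured in a class, 4.17% (endothelial cells) to 25% (neutrophils) were that much higher. The share that much lower ran from 3.97% (epithelial cells) to 10.5% (fibroblasts). For the mitochondrial genes the medians ranged from -0.52 in neutrophils to 0.33 in endothelial cells, with 2 higher and 6 lower values.

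In epithelial cells the median was -0.04 for 76 nuclear genes and 0.10 for 13 mitochondrial genes, beside 0.05 for all 13654 genes measured there. Ndufa4 alone was at least 1.5-fold higher and no subunit gene was that much lower, where 5.98% of all genes were higher and 3.97% lower. Ndufa4 encodes a small subunit of complex IV that was first assigned to complex I. It had 937 CPM in AptCD4-LNT and 560 in Untreated, a log2 ratio of 0.74 (0.72 to 0.76). The next highest was mt-Atp8, a membrane subunit of complex V, with 195 and 142 CPM (0.46), followed by mt-Co2 at 0.28. The lowest were mt-Nd6 (-0.27), Atp5e, a subunit of the complex V central stalk (388 and 456 CPM, -0.23), and Ndufv3, a subunit of the NADH-oxidising arm of complex I (-0.23). All 4 nuclear medians by complex lay between -0.06 and -0.03.

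In macrophages the median was 0.03 for 76 nuclear and 0.08 for 11 mitochondrial genes, below the 0.20 of all genes. Again Ndufa4 was the only subunit gene at least 1.5-fold higher, against 16.9% of all genes, with 581 and 317 CPM (0.88, 0.81 to 0.94). Cox4i2 was the only one that much lower, against 6.06% of all genes. It had 7.32 and 36.4 CPM (-2.32, -2.83 to -1.84) from 39 and 458 UMIs. The macrophage clusters were split by library: clusters 10 and 19 held 49.7% and 40.8% of AptCD4-LNT macrophages, and clusters 16 and 15 held 53.5% and 31.9% of Untreated ones. Within cluster 16, led by Bglap, the osteocalcin gene, together with C1q genes, Cox4i2 had 41.3 and 32.0 CPM (9 and 264 UMIs), and in cluster 10 6.31 and 5.25. In cluster 15 it had 26.3 and 60.6 CPM, from only 2 and 181 UMIs. In clusters 19 and 22 it had 2.29 and 4.84 CPM (2 and 3 UMIs) and 0 and 24.2 CPM (0 and 8 UMIs). The part of cluster makeup in the class value was not tested. Further high values were mt-Atp8 (0.55) and Ndufs1, the large iron-sulphur subunit of complex I (0.46). Cox5a, a matrix-side subunit of complex IV, had 806 and 966 CPM (-0.26), and Ndufv3 was also at -0.26. Without cluster 10 the number of nuclear genes at least 1.5-fold lower went from 1 to 25, and without cluster 16 the number higher went from 1 to 7. The nuclear median was -0.49 without cluster 10, and over all settings tried it ran from -0.49 to 0.25.

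**Figure D4:**
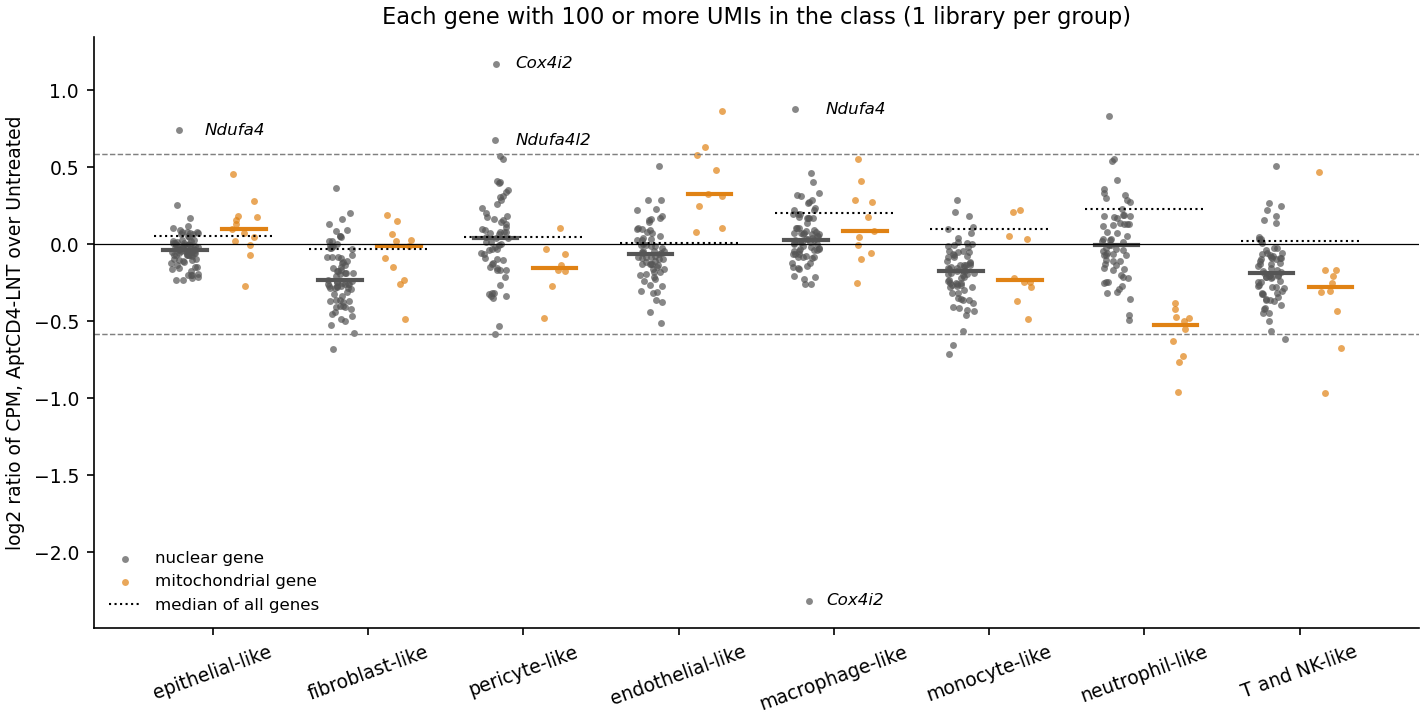
Log2 ratio (AptCD4-LNT over Untreated) of each nuclear and mitochondrial subunit gene in the 8 compared classes, 1 point per gene, with bars at the medians, dotted lines at the median of all genes and dashed lines at 1.5-fold. Most points lie within 1.5-fold of 0, with Ndufa4 above it in epithelial cells and macrophages (0.74 and 0.88) and all 10 measured mitochondrial genes below 0 in neutrophils.

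The Ndufa4 values were followed into the clusters. Of 23 clusters with at least 20 cells in each library, Ndufa4 was higher in AptCD4-LNT in 15 and lower in 8. All 9 epithelial clusters were on the higher side, with log2 ratios from 0.06 to 0.88 and 4 past 1.5-fold. The 5 macrophage clusters went both ways, from -0.41 to 1.20. Clusters 10 (623 and 572 CPM), 15 (263 and 238) and 22 (1050 and 458) were higher. Clusters 16 (229 and 304) and 19 (478 and 635) were lower. The AptCD4-LNT values of clusters 15, 16 and 22 came from only 20, 50 and 44 UMIs. Intervals of the log2 ratio reached below 0 in clusters 10 (-0.08 to 0.33) and 15 (-0.57 to 0.79). Without cluster 10 the macrophage ratio was 0.51, under 1.5-fold. Other classes differed little, with 548 and 547 CPM in fibroblasts, 567 and 620 in endothelial cells, 555 and 581 in monocytes, 630 and 670 in T and NK cells, 286 and 321 in pericytes, and 120 and 95.4 in neutrophils. Osteoclast-like cells had the highest level, 1965 and 2097 CPM. The other paralogue gene, AA467197, was looked up after the Ndufa4 values were seen. It is the mouse counterpart of C15orf48, whose protein is known to take the place of NDUFA4 in complex IV and whose transcript hosts the microRNA Mir147. It was lower in AptCD4-LNT in all 8 classes, those with little difference in Ndufa4 included: 108 and 237 CPM in epithelial cells (-1.13), 45.2 and 416 in macrophages (-3.20), 27.1 and 300.2 in monocytes (-3.47), 11.2 and 113 in fibroblasts (-3.34), 16.3 and 80.1 in pericytes (-2.30), and 293 and 1009 in neutrophils (-1.78). The smallest differences were those of endothelial cells (-0.45) and T and NK cells (-0.14). AA467197 was lower in AptCD4-LNT in 22 of the 23 clusters, 18 of them past 1.5-fold, including clusters in which Ndufa4 was also lower. In pericytes AA467197 had under 100 UMIs over both libraries, so it is not one of the 1293 genes measured in all 8 classes. Of those genes 6.73% were lower in all 8, and the share of all genes by cluster was not counted. A link between AA467197 and the Ndufa4 values was not tested. The Mir147 hairpin lies within AA467197 on the plus strand (chr2:122640803-122640881, GRCm38.p6). Below it stands the stretch of the Ndufa4 transcript, bases 353 to 382 of the 468-base transcript of Ndufa4, after the last coding base at 303, that holds its complements. Both show in capitals bases that are complementary to the other transcript, of which the last 10 in the hairpin match other bases of the Ndufa4 transcript than those shown. They come from RefSeq (GRCm38.p6) and GENCODE M21 (GRCm38):
Mir147 hairpin: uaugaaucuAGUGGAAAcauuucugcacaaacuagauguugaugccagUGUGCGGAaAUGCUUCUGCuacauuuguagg
Ndufa4: agccaTCCGCACAatTTTCCACTtaagcag
Stretches of at least 8 complementary bases between the hairpin and the Ndufa4 transcript numbered 4, and the site holds 2 of them. The 7 letters CCGCACA occur in the transcripts of 3 of 78 nuclear subunit genes (3.85%: Atp5pb, Ndufa4 and Ndufs5) and in 8.44% of all 21901 protein-coding genes. These matches are a description of the letters, and Mir147 itself was not measured.

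**Figure D5:**
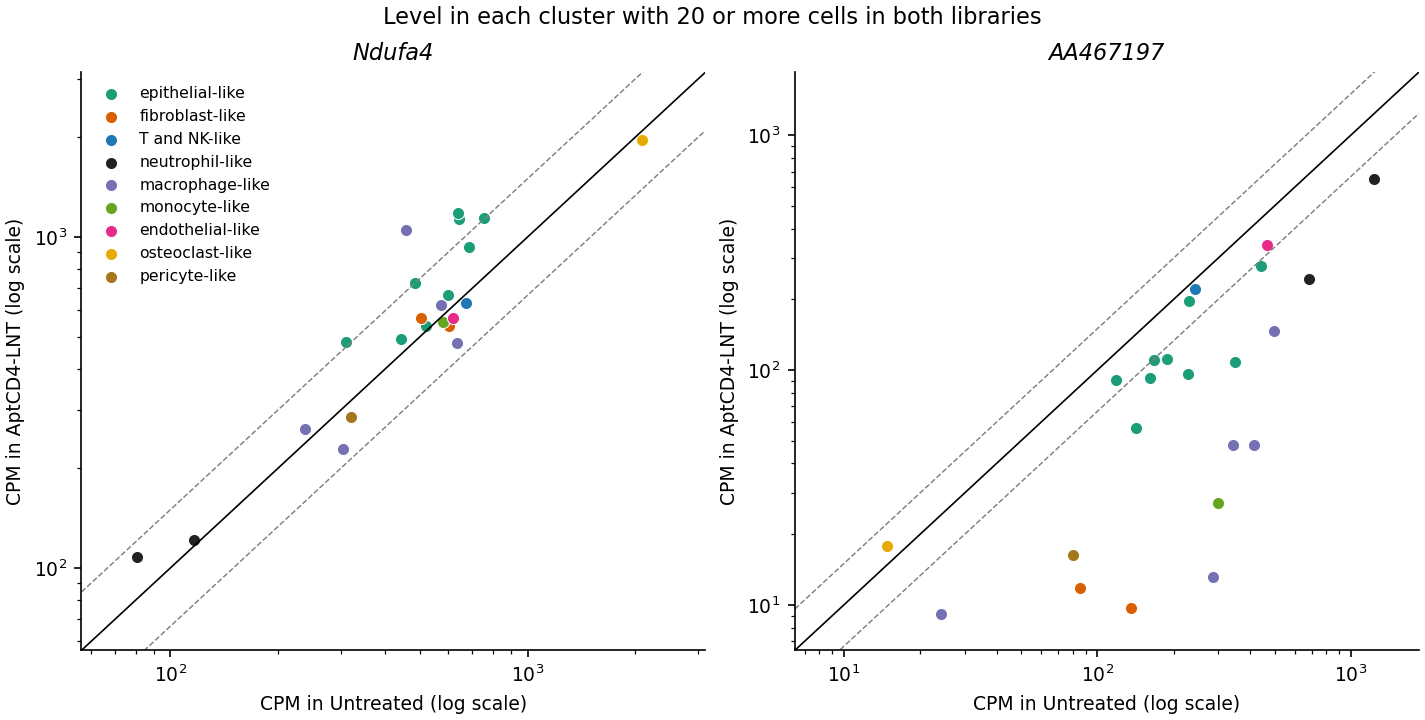
Level (CPM) of Ndufa4 and of its paralogue AA467197 in each cluster with at least 20 cells in each library, AptCD4-LNT against Untreated on log axes, with a solid line at equal level and dashed lines at 1.5-fold. Ndufa4 lies above the line of equal level in all 9 epithelial clusters, and AA467197 lies below it in 22 of 23 clusters.

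In neutrophils the mitochondrial and nuclear genes lay apart under the main settings. All 10 measured mitochondrial genes were lower in AptCD4-LNT, with a median log2 ratio of -0.52, while the median of 63 nuclear genes was -0.01 and that of all genes 0.23. At least 1.5-fold lower were 4 mitochondrial genes, where 5.31% of all genes were that much lower. mt-Nd5, a proton-pumping subunit of complex I, had 100 and 195 CPM (-0.96, -1.16 to -0.76). mt-Co1, the catalytic subunit of complex IV, had 478 and 811 CPM (-0.76, -0.86 to -0.67). mt-Nd2, another proton-pumping subunit, had 306 and 505 (-0.72), and mt-Cytb had 1049 and 1618 (-0.63). Of the nuclear genes only Ndufb2, a membrane-arm subunit of complex I, was 1.5-fold higher, with 26.8 and 15.1 CPM (0.83, 0.29 to 1.39) from 87 and 44 UMIs, where 25% of all genes were. Ndufs5 (0.55) and Ndufs7, an iron-sulphur subunit (0.54), came next. Most AptCD4-LNT neutrophils (83.7%) fell in cluster 9 and most Untreated ones (63.2%) in cluster 17. The mitochondrial median was -0.58 within cluster 9 and -0.12 within cluster 17. Neutrophils were also the shallowest class, with median totals of 1352 and 809.5 UMIs. With doublet calls kept in, the medians were -0.59 for the nuclear and -0.66 for the mitochondrial genes, so the separation was no longer seen. Without the mitochondrial filter 24 nuclear genes were 1.5-fold lower.

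T and NK cells had a median of -0.18 over 70 nuclear genes and -0.28 over 10 mitochondrial genes, beside 0.02 for all genes. Of the nuclear genes 58 of 70 lay below 0, but only Uqcr11, a small subunit of complex III, was 1.5-fold lower (128 and 197 CPM, -0.62), where 7.91% of all genes were. Among the mitochondrial genes mt-Nd6, read from the other strand of the genome than the rest, had 44.4 and 86.6 CPM (-0.96) from 27 and 148 UMIs, and mt-Cytb 2640 and 4207 CPM (-0.67, -0.75 to -0.59). Highest were Ndufa9 (0.51), mt-Atp8 (0.47) and Ndufab1, the mitochondrial acyl carrier protein (0.27).

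Monocytes had medians of -0.18 over 71 nuclear and -0.23 over 10 mitochondrial genes, beside 0.10 for all genes. All 16 measured nuclear complex V genes were below 0. Cox5a was at least 1.5-fold lower (519 and 851 CPM, -0.71), where 4.96% of all genes were that much lower. With doublet calls kept in, Cox5a was at -0.38, under 1.5-fold. Atp5g1 was at -0.56. The highest were Ndufs1 (0.29), mt-Atp8 (0.22) and mt-Atp6 (0.21), with intervals that reached below 0.

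In fibroblasts 63 of 75 nuclear genes lay below 0, with a median of -0.23, beside -0.01 for 11 mitochondrial genes and -0.03 for all genes. Ndufb9, a membrane-arm subunit of complex I, was the only one 1.5-fold lower (223 and 358 CPM, -0.68, -0.77 to -0.59), where 10.5% of all genes were, and none was that much higher, where 8.37% of all genes were. Ndufa7 (-0.58) and Ndufs8, an iron-sulphur subunit (-0.52), were next. Highest were Ndufb4 (0.37), Ndufa4l2 (0.20) and mt-Co2 (0.19). Cluster 3 held 78.3% of AptCD4-LNT and 44.0% of Untreated fibroblasts. Without it Ndufb9 was at -0.30 and no nuclear gene was 1.5-fold lower. Keratin RNA stood at 3.24% of the epithelial level in AptCD4-LNT fibroblasts and at 18.8% in Untreated ones, and its part in these values was not tested.

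In pericytes, of which there were only 51 and 94, the medians were 0.04 over 62 nuclear and -0.15 over 8 mitochondrial genes, beside 0.04 for all genes. The 2 nuclear genes at least 1.5-fold higher, where 12.5% of all genes were, were the isoform genes Cox4i2 (312 and 138 CPM, 1.17, 0.74 to 1.61, from 134 and 69 UMIs) and Ndufa4l2 (656 and 411 CPM, 0.67, 0.41 to 0.94). Ndufa5 was at 0.57. Lowest were Ndufb9 (-0.58), Ndufb7 (-0.53) and mt-Nd2 (-0.48), none of them past 1.5-fold, where 8.6% of all genes were that much lower.

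Endothelial cells, 58 and 165 in number, showed the opposite of neutrophils in their mitochondrial genes. All 9 measured were higher in AptCD4-LNT, with a median of 0.33, while 67 nuclear genes had a median of -0.06 and all genes 0.01. At least 1.5-fold higher, where 4.17% of all genes were, were mt-Atp8 (148 and 81.3 CPM, 0.87, 0.42 to 1.31) and mt-Nd5 (373 and 241 CPM, 0.63, 0.37 to 0.90), and mt-Atp6 was just under the threshold at 0.58. mt-Nd5 was under 1.5-fold at a mitochondrial limit of 10% (0.53) and with doublet calls kept in (0.52). The lowest values were those of Ndufb1 (-0.51), Ndufs8 (-0.44) and Ndufa13 (-0.38), none past 1.5-fold, where 5.23% of all genes were that much lower.

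Of the 66 subunit genes measured in all 8 classes, 18 (27.3%) were lower in AptCD4-LNT in at least 7 of them, and none was higher in 7. Of all 1293 genes measured in all 8, 19.3% were lower in at least 7 and 17% were higher in at least 7. Lower in all 8 were 3 subunit genes (4.55%, against 6.73% of all genes): Cox5a, Cox7c and Cox7a2l, all grouped here with complex IV. Within clusters, however, Cox7a2l was higher in 12, with 0 past 1.5-fold, and lower in 11, with 1 past it. In all 5 macrophage clusters it was higher (0.08 to 0.44), with intervals that reached below 0 in clusters 10, 15 and 16. The share of all genes by cluster was not counted. Ndufa7, Ndufc1 and mt-Cytb had the lowest medians over classes among those lower in 7 of 8, and mt-Atp8 was higher in 6 of 8. All classes of a library share its preparation and its sequencing run, so they are not separate measurements of the treatment.

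Genes around the respiratory chain were described by lists, as counts past 1.5-fold and median log2 ratios. The lists were chosen with earlier results of these data known. Complex II, which feeds electrons from succinate, had medians of 0.10 in epithelial cells and 0.33 in macrophages, and the electron carriers 0.05 in both. The assembly factors of complex I had -0.05 and 0.22, and those of complexes III to V -0.09 and 0.04, with Higd1a, a hypoxia-induced factor of complex IV, at -0.58 and -0.84. Genes of mitochondrial DNA transcription had 0.07 and -0.04, the nuclear regulators of mitochondrial genes 0.07 in both (above 0 in all 8 classes, up to 0.66 in T and NK cells over 4 measured genes), the TCA cycle 0.13 and 0.22, carriers and import -0.04 and -0.03, uncoupling and peroxide removal -0.13 and 0.03. Cytosolic ribosomal proteins had 0.01 and 0.12 and mitochondrial ones -0.06 and 0.03. The medians of all genes were 0.05 and 0.20 in these classes. Glycolysis and hypoxia genes stood lower, with -0.29 in epithelial cells, where 4 of 22 were 1.5-fold lower against 3.97% of all genes, and -0.79 in macrophages, where 16 of 22 were against 6.06%. Egln3, an oxygen sensor, was at -1.97 in macrophages, and Ero1a, which forms disulphide bonds, at -0.76 in epithelial cells. The median of this list was below 0 in 7 of 8 classes. Genes induced by tissue dissociation, such as Atf3 (0.98 in epithelial cells) and Egr1 (1.31 in macrophages), had medians above 0 in all 8 classes, from 0.11 to 0.94, and 8 of 12 were at least 1.5-fold higher in epithelial cells, against 5.98% of all genes, and 8 of 12 in macrophages, against 16.9%. The part of this in the subunit genes was not tested.

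The nuclear subunit genes are known targets of NRF1 and GABPA, factors that tie them to mitochondrial biogenesis. Their promoters were read for the motifs of these and other factors. A link between the motifs and the low levels in neutrophils was not tested. RefSeq promoters (GRCm38.p6, 250 bases before to 50 after the start) were at hand for 65 of the 81. Both strands were searched. The NRF1 motif (GCGCA, any base, then GCGC) was in 14 of them (21.5%) and in 4.78% of all 27025 promoters. The YY1 motif AAGATGGC was in 9 (13.8%) against 2.88%, the GABPA motif ACTTCCGG in 5 (7.69%) against 4.00%, and the ERRA motif TGACCTTG in 3 (4.62%) against 1.53%. At least 1 of these 4 was in 27 (41.5%) against 12.3%, and at least 2 were in Atp5g3, Atp5h, Ndufs5 and Ndufs6. The short hypoxia-type letters GCGTG were in 32 (49.2%) against 32.5%, and ACGTG in 16 (24.6%) against 19.7%. Printed with their motifs in capitals are Atp5h, a stalk subunit of complex V (chr11:115419870-115420169, minus strand, NRF1 and GABPA), and Ndufs6, a zinc-binding subunit of complex I (chr13:73328433-73328732, minus strand, NRF1 and YY1). The promoter of Ndufa4 (chr6:11907401-11907700, minus strand), like most of the 65, holds none of the 4:
Atp5h: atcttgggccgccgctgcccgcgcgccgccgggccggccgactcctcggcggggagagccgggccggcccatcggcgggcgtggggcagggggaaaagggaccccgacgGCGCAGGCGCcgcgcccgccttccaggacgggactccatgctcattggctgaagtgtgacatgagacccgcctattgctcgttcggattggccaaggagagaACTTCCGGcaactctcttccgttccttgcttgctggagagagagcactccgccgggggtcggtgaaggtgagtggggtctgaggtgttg
Ndufs6: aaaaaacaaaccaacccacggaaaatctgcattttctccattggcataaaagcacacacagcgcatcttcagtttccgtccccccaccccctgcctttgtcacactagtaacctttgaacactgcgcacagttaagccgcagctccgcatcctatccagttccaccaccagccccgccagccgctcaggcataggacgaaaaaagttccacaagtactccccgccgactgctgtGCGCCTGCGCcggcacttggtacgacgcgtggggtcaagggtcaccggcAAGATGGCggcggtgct
Ndufa4: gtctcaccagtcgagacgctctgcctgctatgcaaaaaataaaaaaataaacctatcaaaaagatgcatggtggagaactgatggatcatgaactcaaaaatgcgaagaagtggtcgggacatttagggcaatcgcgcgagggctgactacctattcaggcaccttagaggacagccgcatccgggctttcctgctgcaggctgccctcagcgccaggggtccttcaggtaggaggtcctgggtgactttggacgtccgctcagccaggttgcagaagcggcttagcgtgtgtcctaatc
A match shows only that the letters are in the window, and no match only that they are not.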

How the data were processed

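The deposited matrices hold counts, raw UMIs by gene row and cell barcode, per the file headers. The tool Cell Ranger 7.2.0 and the build GRCm39 come from the submitters' processing notes. The 10x kit and whether it reads the 3′ or 5′ end are not given in the sources used here. The smallest barcode total was 500 UMIs in both libraries, and library totals were 98968100 and 131295224 UMIs.

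A minimum of 200 genes and a maximum of 20% mitochondrial UMIs per cell removed 78 AptCD4-LNT and 39 Untreated barcodes. Doublet calls then removed 200 (2.26%) and 1491 (7.46%). Counts normalised to 10000 per cell, 2000 variable genes, 30 principal components and 15 neighbours gave the Leiden clusters at resolution 1. Each cluster was named from its best-scoring marker list, given a score of 1 or more and 3 or more markers at 20 CPM or more. Another list could not have more markers among its 10 leading genes, and a shallow cluster needed a marker of its own there. Macrophage cluster 15 scored 4.96 for macrophage and 4.79 for monocyte, with 0 macrophage markers among its leading genes. UMIs were then summed per class and library. A gene was measured in a class at 100 UMIs over both libraries, and such genes can enter through 1 library alone. Named for each class are the 3 highest and 3 lowest subunit genes. The 10 with the widest range over classes are named too. A result under this rule is not reported here. AA467197 and the clusters left out were chosen after values were seen. The members and lists were chosen with earlier results of these data known. Other settings tried were filters, doublets, scaling, the UMI minimum, the fold and the resolution. The 14 pseudogene rows left out held 4874 and 6047 UMIs, the 94 genes 3271969 and 4439973. The ratio calculation was tested on simulated data. Computation used matplotlib 3.10.9, pandas 2.3.3, scipy 1.17.1, numpy 2.4.6, igraph 0.11.9 and scanpy 1.11.5 under Python 3.11.15. Coordinates and sequences are of GRCm38, not of the build of the counts.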

Additional observations from a re-analysis of the deposited data

Results flagged for a closer look

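Cox4i2 was higher in AptCD4-LNT pericytes (log2 ratio 1.17) and lower in AptCD4-LNT macrophages (-2.32), both past 1.5-fold, and the difference between the classes was not tested. mt-Nd5 was higher in AptCD4-LNT endothelial cells (0.63) and lower in AptCD4-LNT neutrophils (-0.96), which was not tested either. The endothelial value fell under 1.5-fold at a mitochondrial limit of 10% (0.53) and with doublet calls kept in (0.52).

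Gm28438, the nuclear copy of mt-Nd3 and no subunit gene, held 59471 UMIs. Ndufa12-ps, a pseudogene row left out of the 94 genes, held 8424 UMIs over both libraries.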

How the results depend on the processing

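No paired analysis was possible because each group has 1 library. With 1 library a group, no setting shows whether a difference would return in other mice, and pericyte, endothelial and AptCD4-LNT T and NK values rest on the fewest UMIs of the compared classes. Of the median values under other settings, 1099 of 1126 kept their side of 1.5-fold. The sign was kept in 1083 and changed in 43, all with a main value within 0.18 of 0. Class shares of UMIs moved by up to 2.54 times with doublet calls kept in, 1.79 times without the mitochondrial filter and 1.59 times with each cell weighted equally. The cause of the changes below was not tested.

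Keeping doublet calls in moved neutrophils most. There the nuclear median was -0.59 with 0 higher and 39 lower genes, the mitochondrial median -0.66 with 7 lower, nuclear complexes I, III and V at -0.60, -0.65 and -0.63, and mitochondrial complexes I and IV at -0.70 and -0.49. Ndufb2 changed direction to -0.17. Nuclear genes lower were 2 in fibroblasts and 1 in pericytes, and in monocytes 1 was higher and 1 lower.

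Without the mitochondrial filter, neutrophils had 0 nuclear genes higher and 24 lower, a mitochondrial median of -0.78 with 8 lower, mitochondrial complex I at -0.87 and nuclear complex III at -0.65. T and NK cells had 1 mitochondrial gene lower and mitochondrial complex III at -0.51, and monocytes 1 nuclear gene lower. At 10% the neutrophil mitochondrial and mitochondrial complex I medians were both -0.64, and 1 endothelial mitochondrial gene was higher. With at least 1000 UMIs per cell, 2 neutrophil mitochondrial genes were lower and mitochondrial complex III was at -0.30. In fibroblasts 2 nuclear genes were lower, and in T and NK cells 1 was higher and 2 lower.

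With each cell weighted equally, nuclear genes higher and lower were 1 and 5 in fibroblasts, 7 and 2 in pericytes and 3 and 2 in endothelial cells. Nuclear genes higher were 2 in macrophages, and nuclear genes lower 4 in monocytes, 2 in neutrophils and 7 in T and NK cells. Mitochondrial genes lower were 2 in fibroblasts, 9 in neutrophils and 1 in T and NK cells, and higher 7 in endothelial cells and 1 in macrophages. Endothelial mitochondrial, complex I and complex IV medians were all 0.69. Neutrophil ones were -0.88 for all genes, -0.85 for complex I and -0.66 for complex V, and complex III was at -0.59 in fibroblasts and -0.42 in T and NK cells.

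Centred on the median gene, neutrophils had 2 nuclear and 10 mitochondrial genes lower, a mitochondrial median of -0.75, and complexes I and V at -0.72 and -0.66, and pericytes 1 nuclear gene lower. With 20 UMIs as the minimum, nuclear genes lower were 1 in epithelial cells, 4 in fibroblasts, 2 in endothelial cells and 1 in neutrophils, and higher 5 in pericytes, 3 in macrophages and 2 in monocytes, with 2 mitochondrial genes higher in macrophages. At 2-fold, 1 pericyte gene was higher, and 0 were past the fold in epithelial cells, fibroblasts, endothelial mitochondrial genes, monocytes, neutrophils and T and NK cells, and 0 higher in macrophages.

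Leaving out clusters was chosen after seeing the data. Without cluster 3, 0 fibroblast nuclear genes were lower. Without cluster 10, 25 nuclear and 1 mitochondrial macrophage genes were lower. Without cluster 16, 7 nuclear and 3 mitochondrial ones were higher and mitochondrial complex V was at 0.66. Without cluster 17, 2 neutrophil nuclear genes were lower and mitochondrial complex I was at -0.60. Leaving out cluster 2 moved no count past 1.5 times and no median past the fold.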
